A study of Homo sapiens with 51 samples.

Results

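This account concerns K562 cells carrying the DDX3 mutant R376C, an arginine to cysteine change, set against K562 cells carrying wild-type DDX3 (WT). K562 is an established human myelogenous leukaemia line. The libraries were chosen by their titled genotype and make up 7 of the 51 in the series, with 3 from R376C cells and 4 from WT cells. Both genotypes express their DDX3 from a transgene delivered by lentivirus, with the cells' own DDX3 repressed by CRISPR interference, so the WT cells carry the knockdown too. Cells were lysed with a mild detergent and spun through sucrose; the top layer was titled cytoplasmic (Cyto here) and the washed pellet nuclear (Nuc here). Ribosomal RNA was depleted, and libraries were made with a strand-specific kit. The R376C cells have Cyto replicate 1, Nuc replicate 1 and Nuc replicate 2, and no Cyto replicate 2 of theirs is analysed here. The WT cells have replicates 1 and 2 of each. Whether replicates came from separate cultures is not stated, so p-values measure the spread between these samples only. As whole populations were sequenced, a change in all cells and a change in some of them cannot be told apart.

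DDX3X is an X-linked DEAD-box helicase that uses ATP to remodel RNA and takes part in translation initiation, above all on messages with structured leaders. The integrated stress response is a pathway in which kinases phosphorylate the initiation factor eIF2, general translation slows, and the message of the transcription factor ATF4 is translated better. ATF4 then drives genes for amino acid synthesis and uptake, for charging transfer RNAs, and for stopping the response. Dividing tumour cells rely on it for amino acids when nutrients run short.

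The RNA content of the libraries went against the titled fractions, which bears on every comparison. MALAT1, a long non-coding RNA held in nuclei, had 22134 CPM (gene counts scaled to a common library total and normalised between libraries) in R376C Cyto replicate 1 and 22753 and 21092 CPM in WT Cyto. In Nuc libraries it had 2800 CPM in R376C replicate 1, against 2802 and 2799 CPM in WT. Cyto libraries thus held the higher level of a nuclear RNA, and "Cyto" and "Nuc" are used below as titles only. R376C Nuc replicate 2 stood apart from its title: it had 19091 CPM of MALAT1, and 62.8% of its uniquely mapped reads lay in no gene, against 9.11% in R376C Nuc replicate 1 and 65.0% in R376C Cyto replicate 1. It was therefore set beside the Cyto libraries and pooled with Nuc only in an alternative given near the end.

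**Figure D1:**
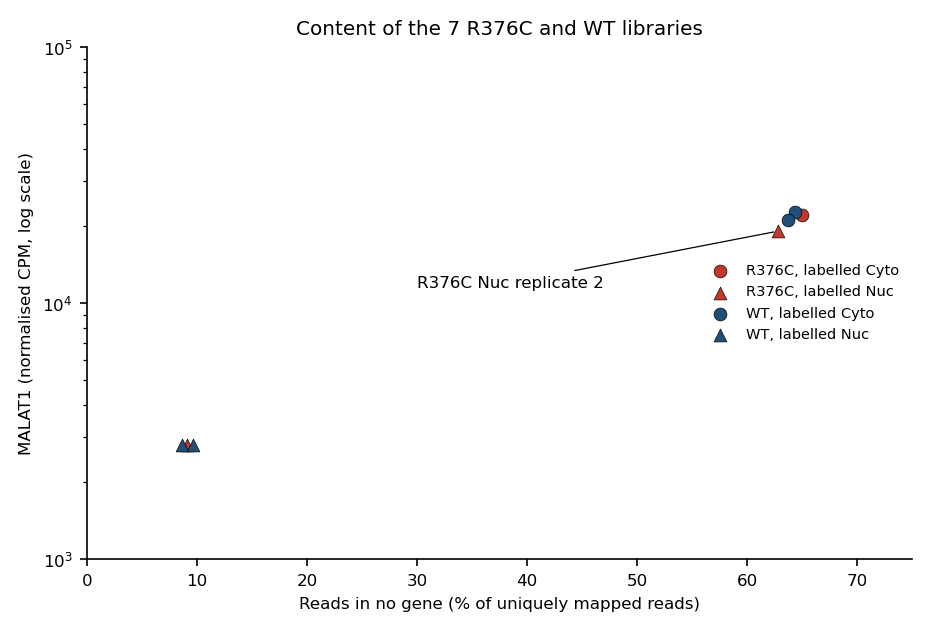
MALAT1 level (normalised CPM, log scale) against the share of uniquely mapped reads in no gene (%), 1 point per library, R376C in red and WT in blue, circles titled Cyto and triangles titled Nuc. R376C Nuc replicate 2, at 62.8% and 19091 CPM, lies beside the 3 Cyto libraries, while the other 3 Nuc libraries lie at 8.67% to 9.60% and about 2800 CPM.

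Against R376C Cyto replicate 1, R376C Nuc replicate 2 differed at 2 of 17562 genes (0.0114%) by edgeR's quasi-likelihood test with Benjamini-Hochberg adjustment, and at 742 by an unadjusted p under 0.05. Those genes, RNU5B-1 and SNORD13, are short structural RNAs. Their counts were as far apart as those of replicates, with a chi-square statistic over its degrees of freedom of 3.37, against 5.43 for the WT Cyto pair and 3.10 for the WT Nuc pair, so they were treated as separate libraries. They did differ in mitochondrial ribosomal RNA: MT-RNR2 had 559 CPM in R376C Cyto replicate 1 and 2.22 CPM in R376C Nuc replicate 2, against 2515 and 13063 CPM in WT Cyto. Gene counts per library were 4148657 to 11884459, and multimapping reads were 49.8% in R376C Nuc replicate 1, against 34.8% and 26.3% in WT Nuc. Its part in the Nuc results was not tested. The erythroid regulator GATA1, which marks K562 cells, had 146 and 152 CPM in R376C Cyto replicate 1 and R376C Nuc replicate 2, against 152 and 149 CPM in WT Cyto. In Nuc libraries GATA1 had 190 CPM in R376C replicate 1, against 207 and 208 CPM in WT, and the summed level of 9 erythroid genes was 1064 CPM, against 1176 and 1182 CPM. Of the 1064 CPM, TFRC alone gave 632 CPM. In R376C Cyto replicate 1 and R376C Nuc replicate 2 the sum was 1705 and 1714 CPM, against 1681 and 1572 CPM in WT Cyto. HBE1, an embryonic globin gene, had no count in any of the 7. Whether its reads were left unassigned was not tested. Summed lymphocyte markers (15 genes) lay between 5.42 and 12.6 CPM, and 15 fibroblast and epithelial markers, led by KRT8 and KRT18, between 126.6 and 330 CPM.

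DDX3X, the targeted gene (ENSG00000215301, GRCh38 chrX:41333284-41364472, plus strand), was at least as abundant in R376C cells as in WT cells. It had 421 CPM in R376C Cyto replicate 1 and 371 CPM in R376C Nuc replicate 2, against 315 and 322 CPM in WT Cyto. Both R376C libraries lay above both WT libraries, and neither difference was called (0.40 ± 0.11 and 0.22 ± 0.11, log2 fold change ± standard error; edgeR quasi-likelihood, adjusted p = 0.072 and 0.38). In Nuc libraries DDX3X had 500 CPM in R376C replicate 1, against 370 and 361 CPM in WT, and rose by 0.45 ± 0.06 (edgeR, adjusted p = 3.21e-07). Cells with the same knockdown and no transgene had 126 to 147 CPM in either fraction. Reads of the endogenous gene and of the transgene cannot be told apart in these counts.

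Far more genes fell than rose in the Cyto comparison. By edgeR's quasi-likelihood test at an adjusted p under 0.05, which is what "called", "rose" and "fell" mean here, 17 genes rose and 128 fell in R376C Cyto replicate 1 against WT Cyto, of 17530 tested (0.097% and 0.73%, 0.827% in either direction). In R376C Nuc replicate 2 against the same WT Cyto libraries, 80 rose and 225 fell of 17562 (0.456% and 1.28%, 1.74% in either direction). With both R376C libraries together against WT Cyto, 137 rose and 321 fell of 16666 (0.822% and 1.93%, 2.75% in either direction). Of those 321, 230 were protein-coding (of 11956 tested) and 37 were short or structural non-coding RNAs (of 497 tested). The genes that fell beside WT Cyto were thus not all messages. In R376C Nuc replicate 1 against WT Nuc, 164 rose and 238 fell of 14598 (1.12% and 1.63%, 2.75% in either direction). An unadjusted p under 0.05 was reached by 1814, 2324, 2605 and 2259 genes in these 4 comparisons, in this order. The first 3 share the WT Cyto libraries and are not independent of each other, and with a single R376C library in most of them, the spread came from all genotypes of the transgene experiment. These counts rest partly on single libraries. Without WT Cyto replicate 1 or 2, the 145 calls of R376C Cyto replicate 1 became 86 or 95, and the 305 of R376C Nuc replicate 2 became 143 or 142. The 458 of both R376C libraries together became 145 to 305 when 1 of the 4 libraries was left out. The 402 calls in Nuc became 281 without WT Nuc replicate 1 and 159 without WT Nuc replicate 2.

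The comparisons of R376C Cyto replicate 1 with WT Cyto and of R376C Nuc replicate 1 with WT Nuc share no library. Whether the Cyto and Nuc libraries of a replicate number came from the same cells is not stated. The comparisons may therefore not be independent. Of 13968 genes tested in both, 51 fell in both, which is 39.8% of the genes that fell in Cyto and 21.4% of those that fell in Nuc. SMCHD1, a chromatin protein of X inactivation, was the 1 gene that rose in both (0.46 ± 0.12 and 0.27 ± 0.08), and 0 genes were called in opposite directions. Its call in Cyto was lost without either WT Cyto library, and that in Nuc without either WT Nuc library.

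Of the gene lists, that of ATF4 and the integrated stress response had the largest share of tested members called in each comparison of levels with WT. This did not hold for the Nuc over Cyto ratio taken up below. The lists and their members were chosen with earlier results of these data known, so the ranking is a description and no independent test. Of the 42 genes of the ATF4 list, 41 were tested, and NUPR1 was too low. In R376C Cyto replicate 1, 23 of the 41 fell and 0 rose against WT Cyto, where 0.73% of all genes fell, and the median log2 fold change was -0.92, against -0.01 over all genes. In R376C Nuc replicate 2, 28 of 41 fell and 0 rose (median -0.81, all genes -0.02, 1.28% of all genes fell). In Nuc, 27 of 41 fell and 0 rose (median -0.54, all genes -0.01, 1.63% of all genes fell). An unadjusted p under 0.05 was reached by 1 higher and 36 lower members, 1 and 37, and 0 and 31, in this order. In both fractions, 17 of the 41 fell.

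ATF4 itself (GRCh38 chr22:39519695-39522685) fell in Nuc only by the calls. It had 346 CPM in R376C Nuc replicate 1, against 640 and 621 CPM in WT Nuc (-0.87 ± 0.07; edgeR, adjusted p = 3.12e-17). In R376C Cyto replicate 1 and R376C Nuc replicate 2 it had 166 and 188 CPM, against 214 and 206 CPM in WT Cyto. Those R376C values also lay below both WT values, by -0.34 ± 0.13 and -0.16 ± 0.13, and were not called.

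DDIT4, an inhibitor of mTORC1 signalling (GRCh38 chr10:72273920-72276036), fell in all 3 comparisons. It had 28.4 CPM in R376C Cyto replicate 1 and 33.1 CPM in R376C Nuc replicate 2, against 115 and 119 CPM in WT Cyto, and 53.9 CPM in R376C Nuc replicate 1, against 336 and 331 CPM in WT Nuc. The R376C libraries lay far below the WT libraries in each setting. The changes were -2.04 ± 0.22 in Cyto replicate 1, -1.82 ± 0.21 in Nuc replicate 2 and -2.63 ± 0.11 in Nuc replicate 1 (edgeR, adjusted p = 3.18e-07, 3.38e-07 and 1.83e-33). ATF3, a stress-induced repressor of the same bZIP family as ATF4, had 2.61 CPM in R376C Cyto replicate 1 (11 counts) and 3.33 CPM in R376C Nuc replicate 2, against 15.7 and 19.2 CPM in WT Cyto. In Nuc it had 6.98 CPM in R376C replicate 1, against 24.8 and 26.9 CPM in WT. It fell in all 3 comparisons (-2.74 ± 0.48, -2.39 ± 0.42 and -1.89 ± 0.27).

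CHAC1, which degrades glutathione, had 3.42 CPM in R376C Nuc replicate 1, against 25.9 and 24.8 CPM in WT Nuc, the largest fall in the list in Nuc (-2.88 ± 0.34; edgeR, adjusted p = 1.92e-09). It had 2.61 and 2.22 CPM in R376C Cyto replicate 1 and R376C Nuc replicate 2, against 10.2 and 9.26 CPM in WT Cyto. Neither was called alone (-1.88 ± 0.62 and -2.11 ± 0.60), and both together were (-2.01 ± 0.47; edgeR, adjusted p = 0.011), a call lost when either of the 2 R376C or either of the 2 WT libraries was left out. TRIB3, a pseudokinase that restrains ATF4, had 37.9 and 36.9 CPM in R376C Cyto replicate 1 and R376C Nuc replicate 2, against 80.7 and 85.8 CPM in WT Cyto. In Nuc TRIB3 had 106 CPM in R376C replicate 1, against 205 and 209 CPM in WT. It fell (-1.14 ± 0.18, -1.18 ± 0.17 and -0.96 ± 0.09), in the order Cyto replicate 1, Nuc replicate 2 and Nuc replicate 1, which is kept below where 3 changes are given. SESN2, a leucine sensor that restrains mTORC1, fell (-1.52 ± 0.19, -1.46 ± 0.18 and -1.20 ± 0.09).

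Among the other regulators, DDIT3, the pro-apoptotic factor CHOP, had 13.4 CPM in R376C Nuc replicate 1, against 31.1 and 29.6 CPM in WT Nuc, and fell by 1.18 ± 0.19. In R376C Cyto replicate 1 and R376C Nuc replicate 2 it was not called (-0.51 ± 0.26 and -0.53 ± 0.25). PPP1R15A, the phosphatase subunit that reverses eIF2 phosphorylation, fell in Nuc replicate 2 (-0.63 ± 0.15) and Nuc replicate 1 (-0.53 ± 0.09), with -0.60 ± 0.16 and no call in Cyto replicate 1. Its call in Nuc replicate 2 was lost without either WT Cyto library. CEBPB, a bZIP partner of ATF4, fell in Nuc (-0.76 ± 0.17), a call lost without WT Nuc replicate 1. In Cyto replicate 1 it stood at -0.92 ± 0.29 and in Nuc replicate 2 at 0.07 ± 0.25, both uncalled. JDP2, another bZIP protein, fell (-1.54 ± 0.36, -1.32 ± 0.33 and -1.12 ± 0.23), and its first 2 calls were lost without either WT Cyto library. VEGFA, an angiogenic factor, fell (-1.05 ± 0.16, -0.89 ± 0.16 and -0.87 ± 0.14).

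**Figure D2:**
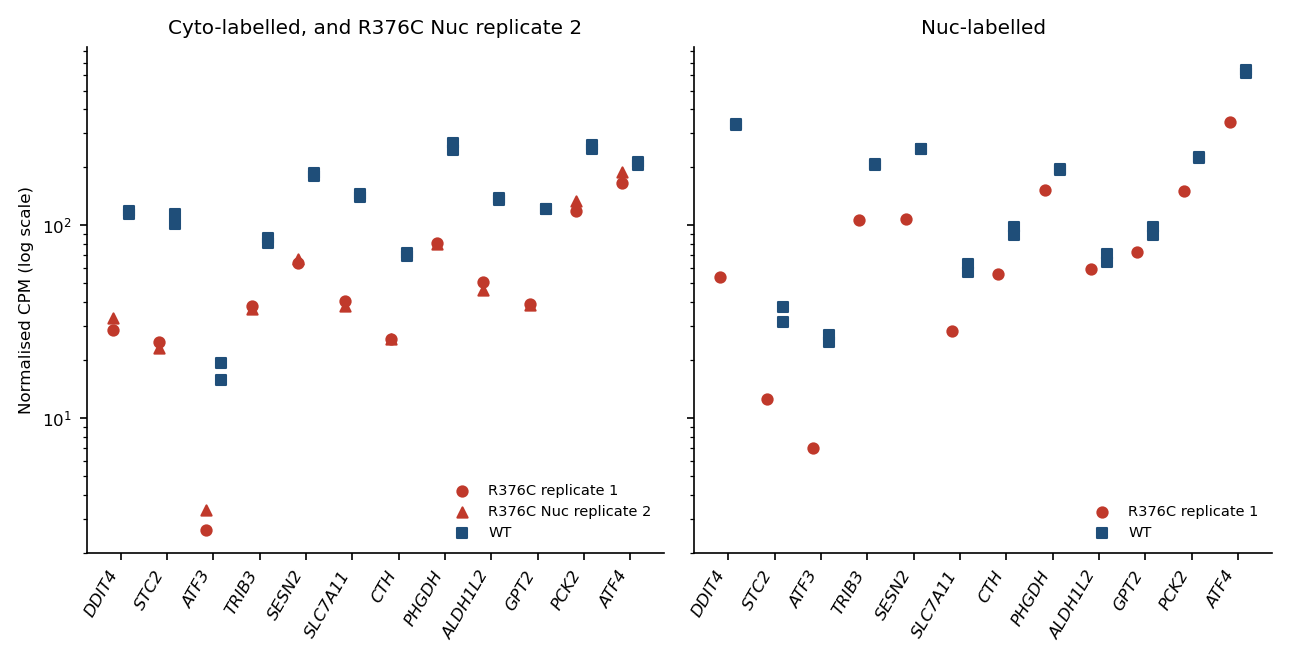
Normalised CPM (log scale) of 12 genes of the ATF4 list in each library, 1 point per library, R376C in red (triangles for Nuc replicate 2) and WT as blue squares; left, the Cyto libraries with R376C Nuc replicate 2, right, the remaining Nuc libraries. R376C lies below WT for every gene shown, by the most for DDIT4 in Nuc (53.9 CPM, against 336 and 331 CPM) and by little for ALDH1L2 in Nuc (59.6 CPM, against 71.0 and 64.6 CPM).

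ATF4 and its C/EBP partners bind composite elements, which the letters TGATGNAA approximate. This motif was searched on both strands in the 250 bases before the RefSeq start of each gene (GRCh38.p14). It was found in 870 of 27305 promoters (3.19%), in 4 of the 33 matched genes of the ATF4 list (12.1%) and in 2 of 16 matched transfer RNA synthetase genes (12.5%). Of the ATF4 list members with a matched promoter that fell in both fractions, 1 of 14 held it, ATF3. The sequences below give the motif, in capitals, with up to 30 bases on each side, read along the gene's own strand. TTGCATCA is an instance on the opposite strand. A match is a description of letters and not of a bound site.
ASNS (chr7:97872439-97872506, minus strand): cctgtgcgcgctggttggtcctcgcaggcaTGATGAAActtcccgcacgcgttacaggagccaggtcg
ATF3 (chr1:212565186-212565253, plus strand): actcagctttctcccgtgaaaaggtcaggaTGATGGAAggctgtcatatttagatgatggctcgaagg
CHAC1 (chr15:40953232-40953299, plus strand): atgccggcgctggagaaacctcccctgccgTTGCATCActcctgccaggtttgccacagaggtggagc
MTHFD1L (chr6:150866327-150866394, plus strand): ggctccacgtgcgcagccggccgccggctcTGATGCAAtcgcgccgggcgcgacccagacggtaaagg
AARS1 (chr16:70289656-70289723, minus strand): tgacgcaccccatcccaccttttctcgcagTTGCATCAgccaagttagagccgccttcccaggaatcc
IARS1 (chr9:92293698-92293740, minus strand): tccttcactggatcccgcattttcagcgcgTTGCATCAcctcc

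The list holds enzymes that make serine and glycine and feed one-carbon units to folate, of which PHGDH, SHMT2 and MTHFD2 fell in all 3 comparisons. PHGDH, the first enzyme of serine synthesis (GRCh38 chr1:119648411-119744226), had 80.84 CPM in R376C Cyto replicate 1 and 80.01 CPM in R376C Nuc replicate 2, against 268 and 246 CPM in WT Cyto. In Nuc it had 153 CPM in R376C replicate 1, against 193 and 196 CPM in WT. R376C lay below WT in each setting, and closer to it in Nuc. The changes were -1.67 ± 0.16, -1.68 ± 0.15 and -0.35 ± 0.09 (edgeR, adjusted p = 1.86e-08, 4.13e-09 and 0.011), and the call in Nuc was lost without WT Nuc replicate 2. PSAT1, the next enzyme, fell in Nuc replicate 2 (-1.30 ± 0.24), with -0.93 ± 0.24 in Cyto replicate 1 and -0.27 ± 0.10 in Nuc replicate 1 uncalled. PSPH, the last one, fell in Nuc replicate 1 (-0.58 ± 0.13), with -0.85 ± 0.24 in Cyto replicate 1 and -0.76 ± 0.22 in Nuc replicate 2 uncalled. SHMT2, which makes glycine and one-carbon units in mitochondria, fell (-0.73 ± 0.13, -0.72 ± 0.13 and -0.50 ± 0.08).

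MTHFD2, which oxidises methylene folate in mitochondria, fell (-0.84 ± 0.13, -0.90 ± 0.13 and -0.66 ± 0.07). MTHFD1L, the mitochondrial formate-releasing enzyme, fell in Cyto replicate 1 and Nuc replicate 2 (-0.58 ± 0.15 and -0.64 ± 0.14), was uncalled in Nuc replicate 1 (-0.17 ± 0.10), and lost the first call without either WT Cyto library and the second without WT Cyto replicate 1. ALDH1L2, a mitochondrial folate dehydrogenase, had 50.7 and 46.3 CPM in R376C Cyto replicate 1 and R376C Nuc replicate 2, against 135 and 138 CPM in WT Cyto. In Nuc ALDH1L2 had 59.6 CPM in R376C replicate 1, against 71.0 and 64.6 CPM in WT, lower than both and not called. The changes beside WT Cyto were -1.43 ± 0.20 and -1.56 ± 0.19.

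Other members of the list make other amino acids. ASNS, asparagine synthetase, had 5.93 and 8.08 CPM in R376C Cyto replicate 1 and R376C Nuc replicate 2, against 21.5 and 24.1 CPM in WT Cyto (-1.94 ± 0.36 and -1.50 ± 0.31, the second call lost without WT Cyto replicate 2). In Nuc it was near the floor, with 1.71 CPM in R376C replicate 1 (12 counts), against 2.37 and 3.09 CPM in WT, and was not called. CTH, which makes cysteine, had 25.6 and 25.8 CPM in R376C Cyto replicate 1 and R376C Nuc replicate 2, against 68.9 and 72.2 CPM in WT Cyto. It fell in all 3 comparisons (-1.46 ± 0.24, -1.45 ± 0.23 and -0.75 ± 0.12). GPT2, a mitochondrial alanine transaminase, had 39.1 and 38.5 CPM in R376C Cyto replicate 1 and R376C Nuc replicate 2, against 122 and 121 CPM in WT Cyto (-1.64 ± 0.18 and -1.66 ± 0.18). In Nuc it had 72.7 CPM in R376C replicate 1, against 89.1 and 97.6 CPM in WT, and missed the threshold (-0.36 ± 0.11; edgeR, adjusted p = 0.059). PCK2, mitochondrial phosphoenolpyruvate carboxykinase, fell (-1.11 ± 0.14, -0.94 ± 0.13 and -0.58 ± 0.08).

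The proline genes did not move together with these. PYCR1, the last enzyme of proline synthesis, fell in Nuc only by the calls (-0.36 ± 0.08, with -0.22 ± 0.14 and -0.21 ± 0.13 beside WT Cyto). ALDH18A1, the first one, had 93.9 and 101 CPM in R376C Cyto replicate 1 and R376C Nuc replicate 2, against 72.5 and 80.5 CPM in WT Cyto. Both R376C values lay above both WT values without a call (0.29 ± 0.14 and 0.39 ± 0.13). EIF4EBP1, a repressor of cap-dependent translation, fell beside WT Cyto (-0.93 ± 0.22 and -0.77 ± 0.21) and not in Nuc (-0.11 ± 0.09), with both calls lost without either WT Cyto library. ATF5, an ATF4 relative, fell in Nuc replicate 2 (-1.16 ± 0.30), a call likewise lost without either.

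Among amino acid transporters, SLC7A11, which imports cystine (GRCh38 chr4:138164097-138242349), fell most. It had 40.5 and 38.2 CPM in R376C Cyto replicate 1 and R376C Nuc replicate 2, against 140 and 146 CPM in WT Cyto, and 28.4 CPM in R376C Nuc replicate 1, against 63.1 and 57.0 CPM in WT Nuc. The groups did not overlap, and the changes were -1.82 ± 0.17, -1.90 ± 0.17 and -1.08 ± 0.15 (edgeR, adjusted p = 1.86e-08, 1.81e-09 and 4.73e-07). SLC6A9, a glycine transporter, had 44.1 and 48.5 CPM in R376C Cyto replicate 1 and R376C Nuc replicate 2, against 139 and 152 CPM in WT Cyto (-1.73 ± 0.18 and -1.59 ± 0.17). In Nuc SLC6A9 had 25.4 CPM in R376C replicate 1, against 39.1 and 34.7 CPM in WT, lower and not called (-0.54 ± 0.18). SLC7A5, the leucine transporter, fell (-0.92 ± 0.13, -0.81 ± 0.13 and -0.53 ± 0.07), as did its heavy chain SLC3A2 (-0.58 ± 0.12, -0.47 ± 0.12 and -0.80 ± 0.09).

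SLC7A1, an arginine and lysine carrier, fell (-0.87 ± 0.12, -0.80 ± 0.12 and -0.46 ± 0.08). SLC1A5, a glutamine carrier, fell in Cyto replicate 1 and Nuc replicate 1 (-0.49 ± 0.12 and -0.48 ± 0.07), and SLC38A2, a carrier of small neutral amino acids, in Nuc replicate 1 (-0.77 ± 0.08), with -0.74 ± 0.21 uncalled in Cyto. SLC1A4, a serine and alanine carrier, fell in Nuc replicate 2 and Nuc replicate 1 (-0.78 ± 0.21 and -0.56 ± 0.14). The SLC3A2 calls were lost without WT Cyto replicate 1, and in Nuc replicate 2 also without replicate 2. Those of SLC1A5 in Cyto and SLC1A4 in Nuc replicate 2 were lost without either WT Cyto library, and that of SLC1A4 in Nuc without WT Nuc replicate 2. STC2, a secreted glycoprotein, had 24.9 and 23.0 CPM in R376C Cyto replicate 1 and R376C Nuc replicate 2, against 115 and 101 CPM in WT Cyto, and fell (-2.11 ± 0.19, -2.23 ± 0.19 and -1.46 ± 0.20). INHBE, an inhibin subunit, fell (-1.85 ± 0.29, -1.84 ± 0.27 and -1.74 ± 0.24), as did ADM2, an adrenomedullin-related peptide (-1.95 ± 0.28, -1.68 ± 0.26 and -1.33 ± 0.18).

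The cytosolic transfer RNA synthetases, which join amino acids to transfer RNAs, split into genes that fell and genes that were not called. Of 20 tested, 8 fell and 0 rose in R376C Cyto replicate 1 (median -0.26; 0.73% of all genes fell), 10 fell and 0 rose in R376C Nuc replicate 2 (median -0.37; 1.28%), and 7 fell and 0 rose in R376C Nuc replicate 1 (median -0.20; 1.63%). By an unadjusted p under 0.05, 1 was higher and 9 lower, 1 and 11, and 0 and 11, in this order. WARS1, for tryptophan, had 96.7 and 103 CPM in R376C Cyto replicate 1 and R376C Nuc replicate 2, against 250 and 256 CPM in WT Cyto. In Nuc it had 319 CPM in R376C replicate 1, against 383 and 359 CPM in WT, and it fell beside WT Cyto (-1.39 ± 0.17 and -1.30 ± 0.16) and was not called in Nuc (-0.22 ± 0.07). GARS1, for glycine, had 227 and 201 CPM in R376C Cyto replicate 1 and R376C Nuc replicate 2, against 466 and 463 CPM in WT Cyto, and fell (-1.04 ± 0.12, -1.21 ± 0.12 and -0.30 ± 0.07).

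CARS1, for cysteine, fell (-1.10 ± 0.14, -1.26 ± 0.14 and -0.50 ± 0.11), as did MARS1, for methionine (-0.96 ± 0.12, -0.68 ± 0.11 and -0.38 ± 0.07). AARS1, for alanine, fell (-0.73 ± 0.11, -0.81 ± 0.11 and -0.39 ± 0.07). SARS1, for serine, and YARS1, for tyrosine, fell in all 3 comparisons, with -0.75 ± 0.11 as the largest change. IARS1, for isoleucine, fell beside WT Cyto (-0.55 ± 0.10 and -0.50 ± 0.10) and not in Nuc (-0.05 ± 0.06), whereas VARS1, for valine, fell in Nuc only by the calls (-0.25 ± 0.07, with 0.17 ± 0.13 and 0.37 ± 0.12 uncalled beside WT Cyto). The synthetases for aspartate, histidine, lysine, glutamine and arginine and both phenylalanine subunits were called in none of the comparisons with WT. Calls of SARS1 beside WT Cyto were lost without WT Cyto replicate 1, and those of YARS1 and VARS1 in Nuc without WT Nuc replicate 2.

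The unfolded protein response of the endoplasmic reticulum was mixed. Of 19 genes tested, 2 fell and 0 rose in R376C Cyto replicate 1, where 16 lay above 0 (median 0.19; 0.73% of all genes fell). In R376C Nuc replicate 2, 3 fell and 2 rose (median 0.16; 1.28% and 0.456% of all genes), and in R376C Nuc replicate 1, 3 fell and 0 rose (median 0.00; 1.63% of all genes fell). The genes that rose in Nuc replicate 2 were SDF2L1, a chaperone partner, and HYOU1, a reticulum chaperone (0.71 ± 0.15 and 0.39 ± 0.10). EDEM1, which directs misfolded glycoproteins to degradation, fell in Nuc replicate 2 and Nuc replicate 1 (-0.46 ± 0.13 and -0.35 ± 0.09). The Nuc replicate 2 calls of HYOU1 and EDEM1 were lost without either WT Cyto library and that of SDF2L1 without WT Cyto replicate 2, and the Nuc replicate 1 call of EDEM1 without WT Nuc replicate 1. HERPUD1, a component of reticulum-associated degradation, had 30.6 and 25.0 CPM in R376C Cyto replicate 1 and R376C Nuc replicate 2, against 60.2 and 68.2 CPM in WT Cyto. In Nuc HERPUD1 had 25.1 CPM in R376C replicate 1, against 62.0 and 60.4 CPM in WT. It fell in all 3 (-1.07 ± 0.19, -1.36 ± 0.19 and -1.29 ± 0.15). XBP1, a transcription factor of the same response, fell (-0.90 ± 0.19, -0.94 ± 0.18 and -0.67 ± 0.09), with the first call lost without WT Cyto replicate 2.

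Outside these lists, the largest fall in Cyto among the protein-coding genes with a mean of at least 5 CPM was that of TF, which encodes the iron carrier transferrin (GRCh38 chr3:133745956-133796640). It had 4.27 and 6.65 CPM in R376C Cyto replicate 1 and R376C Nuc replicate 2, against 30.9 and 28.8 CPM in WT Cyto (-2.80 ± 0.34 and -2.16 ± 0.29; edgeR, adjusted p = 2.5e-06 and 8.96e-06). In Nuc the R376C library stood between the WT libraries, with 18.5 CPM, against 19.7 and 17.5 CPM. ASS1, argininosuccinate synthase of arginine synthesis, had 11.1 and 9.03 CPM in R376C Cyto replicate 1 and R376C Nuc replicate 2, against 38.7 and 44.8 CPM in WT Cyto. In Nuc ASS1 also lay between the WT libraries, with 28.4 CPM in R376C replicate 1, against 27.7 and 29.8 CPM. AKNA, an AT-hook protein, fell beside WT Cyto (-1.76 ± 0.21 and -1.30 ± 0.18), as did the membrane protein TMEM154 (-1.77 ± 0.35 and -1.17 ± 0.30), and neither was called in Nuc (-0.14 ± 0.16 and 0.33 ± 0.30). The TMEM154 call in Nuc replicate 2 was lost without either WT Cyto library.

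Of 20 granulocyte and monocyte genes, 9 were tested beside WT Cyto and 10 in Nuc. In R376C Cyto replicate 1, Nuc replicate 2 and Nuc replicate 1, 2, 1 and 1 of them fell, where 0.73%, 1.28% and 1.63% of all genes fell. FCGR2A, an Fc receptor, had 12.6 and 17.4 CPM in R376C Cyto replicate 1 and R376C Nuc replicate 2, against 33.1 and 30.6 CPM in WT Cyto, and fell in Cyto replicate 1 and Nuc replicate 1 (-1.34 ± 0.32 and -1.13 ± 0.26). CSF3R, the receptor of granulocyte colony-stimulating factor, fell beside WT Cyto (-0.61 ± 0.14 and -0.76 ± 0.14). The Cyto replicate 1 calls of both were lost without either WT Cyto library. EGR1, an immediate early transcription factor, fell (-1.17 ± 0.21, -1.09 ± 0.19 and -0.47 ± 0.14), the last call lost without either WT Nuc library. GRAP2, an adaptor protein, fell in R376C Nuc replicate 2 and Nuc replicate 1 (-1.84 ± 0.37 and -1.85 ± 0.37), and BBC3, the pro-apoptotic protein PUMA, in Nuc replicate 1 (-1.55 ± 0.21).

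Of the genes that rose in Cyto, HSPA8, the constitutive heat shock protein 70 (GRCh38 chr11:123057489-123063230), had 579 and 551 CPM in R376C Cyto replicate 1 and R376C Nuc replicate 2, against 327 and 341 CPM in WT Cyto. It rose by 0.79 ± 0.12 and 0.72 ± 0.12 (edgeR, adjusted p = 1.2e-04 and 3.72e-04). In Nuc it had 1326 CPM in R376C replicate 1, against 1191 and 1259 CPM in WT, above both and not called (0.11 ± 0.06). HSPA8 was the 1 called gene of 16 heat shock genes in Cyto, where the list median was 0.27 and 0.097% of all genes rose. In Nuc, where 1.12% of all genes rose, DNAJB1, a co-chaperone, and HSPB1, a small heat shock protein, were the 2 called members (0.38 ± 0.09 and 0.34 ± 0.10), the second lost without either WT Nuc library.

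Host genes of small nucleolar RNAs, whose introns release those RNAs and whose own spliced RNA is mostly not translated, rose in part. In R376C Cyto replicate 1, 4 of 24 rose and 0 fell (median 0.23; 0.097% of all genes rose), and in R376C Nuc replicate 2, 5 rose and 0 fell (median 0.27; 0.456%). SNHG5 (GRCh38 chr6:85660950-85678748, minus strand) had 72.3 and 56.7 CPM in R376C Cyto replicate 1 and R376C Nuc replicate 2, against 34.3 and 29.8 CPM in WT Cyto (1.18 ± 0.17 and 0.83 ± 0.16). GAS5 had 433 and 415 CPM in the same R376C libraries, against 317 and 299 CPM in WT Cyto (0.49 ± 0.10 and 0.43 ± 0.10). SNHG4 rose by 0.67 ± 0.13 and 0.55 ± 0.13, and ZFAS1 by 0.68 ± 0.15 in Cyto replicate 1. In Nuc, 1 of the 24 rose and 2 fell, where 1.12% of all genes rose and 1.63% fell. Reads of a host gene and of the small RNAs within it may be shared. Without WT Cyto replicate 2, the Cyto replicate 1 calls of GAS5, SNHG4 and ZFAS1 were lost, and the SNHG5 call of Nuc replicate 2 too; GAS5 and SNHG4 in Nuc replicate 2 were lost without either.

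The other protein-coding genes that rose in Cyto did so by 0.42 to 0.62 on the log2 scale, apart from NPTXR, a neuronal pentraxin receptor (1.19 ± 0.26 in Cyto replicate 1 and 0.98 ± 0.25 in Nuc replicate 2). DYNC1H1, the dynein heavy chain, had 1035 and 1036 CPM in R376C Cyto replicate 1 and R376C Nuc replicate 2, against 741 and 745 CPM in WT Cyto (0.48 ± 0.10 each). FASN, fatty acid synthase, had 1805 and 2032 CPM in those libraries, against 1325 and 1324 CPM in WT Cyto (0.45 ± 0.11 and 0.62 ± 0.11). FLNC, an actin crosslinker, rose by 0.48 ± 0.10 and 0.57 ± 0.10. PUS7, a pseudouridine synthase, CCT6A, a chaperonin subunit, and AHNAK, a giant scaffold protein, rose in Cyto replicate 1 (0.62 ± 0.15, 0.54 ± 0.13 and 0.42 ± 0.10). Except for FLNC and NPTXR, the Cyto replicate 1 calls named here were lost without either WT Cyto library; FLNC was lost without WT Cyto replicate 1 and NPTXR without replicate 2, and the Nuc replicate 2 call of NPTXR without either.

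Of the genes that rose in Nuc, EIF5, the initiation factor that acts on eIF2-bound GTP (GRCh38 chr14:103333544-103345025), had 290 CPM in R376C Nuc replicate 1, against 167 and 180 CPM in WT Nuc (0.74 ± 0.07; edgeR, adjusted p = 6.15e-12). Beside WT Cyto it was uncalled (0.21 ± 0.13 and 0.29 ± 0.13). NEFH, neurofilament heavy chain, had 180.3 CPM, against 93.8 and 107 CPM in WT Nuc (0.84 ± 0.08), and TWF1, an actin-binding protein, had 39.6 CPM, against 21.5 and 21.1 CPM (0.90 ± 0.15). ZC3H12A, an endoribonuclease, TARS3, a threonyl synthetase paralogue, TNFSF10, the death ligand TRAIL, and NOTUM, a Wnt inactivator, rose by 0.91 ± 0.20, 0.78 ± 0.18, 0.78 ± 0.23 and 0.77 ± 0.20. Those of ZC3H12A and TARS3 were lost without WT Nuc replicate 2, that of NOTUM without replicate 1, and that of TNFSF10 without either.

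Several gene groups had called members in Nuc and none or fewer in R376C Cyto replicate 1, a difference that was not tested except per gene below. For translation factors the contrast did not hold with both R376C libraries together against WT Cyto. There 2 of 42 rose and 2 fell, where 0.822% and 1.93% of all genes did, and they were other genes than those named here for Nuc. Of 25 cholesterol genes, 5 fell and 0 rose in Nuc (median -0.17; 1.63% of all genes fell), and 0 were called in Cyto by edgeR, where 1 was higher and 1 lower by an unadjusted p under 0.05. The genes that fell included CYP51A1, lanosterol demethylase, at 1.71 CPM in R376C Nuc replicate 1, against 6.34 and 5.78 CPM in WT Nuc (-1.81 ± 0.46), and DHCR7 and FDFT1 (-0.49 ± 0.10 and -0.26 ± 0.08). Of 38 genes of G1/S and replication, 6 fell and 0 rose (median -0.17), among them the licensing factor CDT1 (-0.46 ± 0.08), E2F2 (-0.43 ± 0.12), thymidine kinase TK1 (-0.43 ± 0.10) and the helicase subunit MCM2 (-0.36 ± 0.07). Of 30 immediate early and AU-rich messages, 4 fell, including IER2 (-0.61 ± 0.10), the kinase gene PIM1 (-0.58 ± 0.07) and MYC (-0.47 ± 0.07). Of 42 translation factors, where 1.12% of all genes rose, 2 rose (EIF5 and EIF4G2, 0.20 ± 0.06) and 2 fell (EIF4H, -0.28 ± 0.07, and EEF2, -0.23 ± 0.06). Cytosolic ribosomal protein genes had 6 that rose of 81 (1.12% of all genes), led by RPL21 (0.33 ± 0.06). NEAT1, UROD, a heme enzyme, and KRT18 fell (-0.44 ± 0.10, -0.33 ± 0.08 and -0.40 ± 0.08). Of the genes named in this paragraph, E2F2, FDFT1, EEF2, EIF4G2 and UROD lost their calls without either WT Nuc library, DHCR7, TK1, MCM2 and EIF4H without replicate 2, and NEAT1 without replicate 1.

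**Figure D3:**
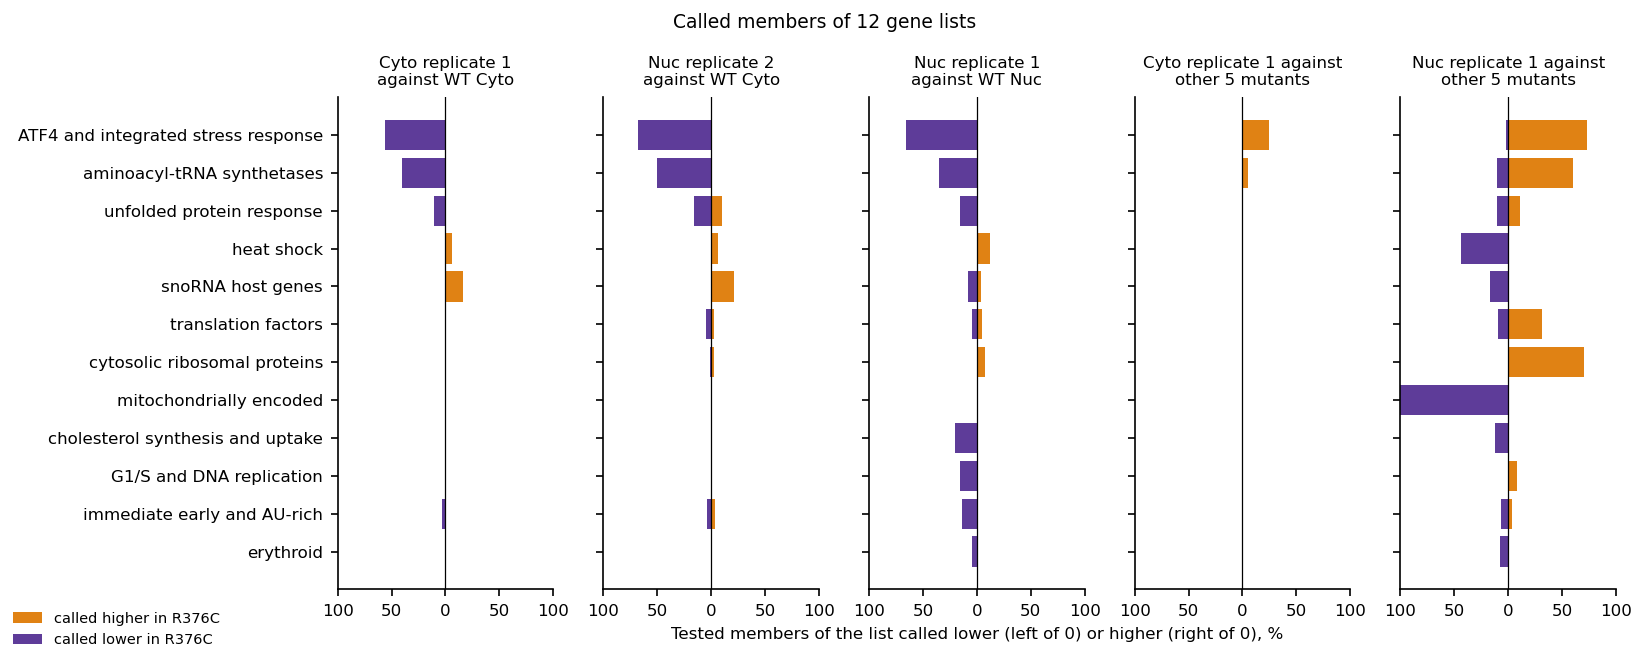
Share (%) of the tested members of 12 gene lists called lower (left, purple) or higher (right, orange) in R376C, in 5 comparisons. The ATF4 list has 23, 28 and 27 of 41 lower against WT and 10 and 30 of 41 higher against the other mutants; all 13 mitochondrially encoded genes are lower in the last comparison only.

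Whether a change differed between the titled fractions was tested as the change in the Nuc over Cyto ratio, in R376C replicate 1 of each against the 4 WT libraries. Of 18969 genes, 15 had a higher ratio in R376C and 19 a lower one (0.0791% and 0.1%, 0.179% in either direction; 1589 with an unadjusted p under 0.05). The split rests on the scaling: with DESeq2's size factors the median over all genes moved, and 18 were higher and 4 lower. Without 1 library the 34 calls became 29 (WT Cyto replicate 1), 15 (WT Cyto replicate 2), 29 (WT Nuc replicate 1) or 11 (WT Nuc replicate 2). The median ratio change over all genes was -0.10.

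The ratio rose for genes that had fallen beside WT Cyto and less or not in Nuc. TF led with 2.72 ± 0.44 and ASS1 followed with 1.81 ± 0.34 (edgeR, adjusted p = 1.41e-04 and 0.0025), with AKNA at 1.53 ± 0.27, PHGDH at 1.24 ± 0.17, GPT2 at 1.19 ± 0.22, ALDH1L2 at 1.17 ± 0.23 and WARS1 at 1.10 ± 0.17. TMEM154 (2.02 ± 0.48), SLC6A9 (1.12 ± 0.26) and GARS1 (0.65 ± 0.13) were also called. Within the ATF4 list, 4 members had a higher ratio, and ATF4 itself had a lower one (-0.60 ± 0.14), a call lost with DESeq2's size factors. The ratio fell for SNHG5 (-1.99 ± 0.32), HSPA8 (-0.75 ± 0.14), DYNC1H1 (-0.61 ± 0.12), FASN (-0.67 ± 0.14), CCT6A (-0.64 ± 0.14), SNHG4 (-0.76 ± 0.18) and GAS5 (-0.59 ± 0.13). With DESeq2's size factors, FASN, CCT6A, SNHG4 and GAS5 were no longer called. Of these, TF, ASS1, AKNA, PHGDH, GPT2, ALDH1L2, WARS1, GARS1, SNHG5, HSPA8 and DYNC1H1 were called whichever of the 4 WT libraries was left out. Without WT Nuc replicate 2, FASN, CCT6A, TMEM154, SLC6A9, SNHG4, GAS5 and ATF4 were not called, and without WT Cyto replicate 2 the same genes except FASN were not called. SNHG4 and ATF4 also lost their calls without either remaining WT library, TMEM154 without WT Cyto replicate 1, and SLC6A9 and GAS5 without WT Nuc replicate 1.

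**Figure D4:**
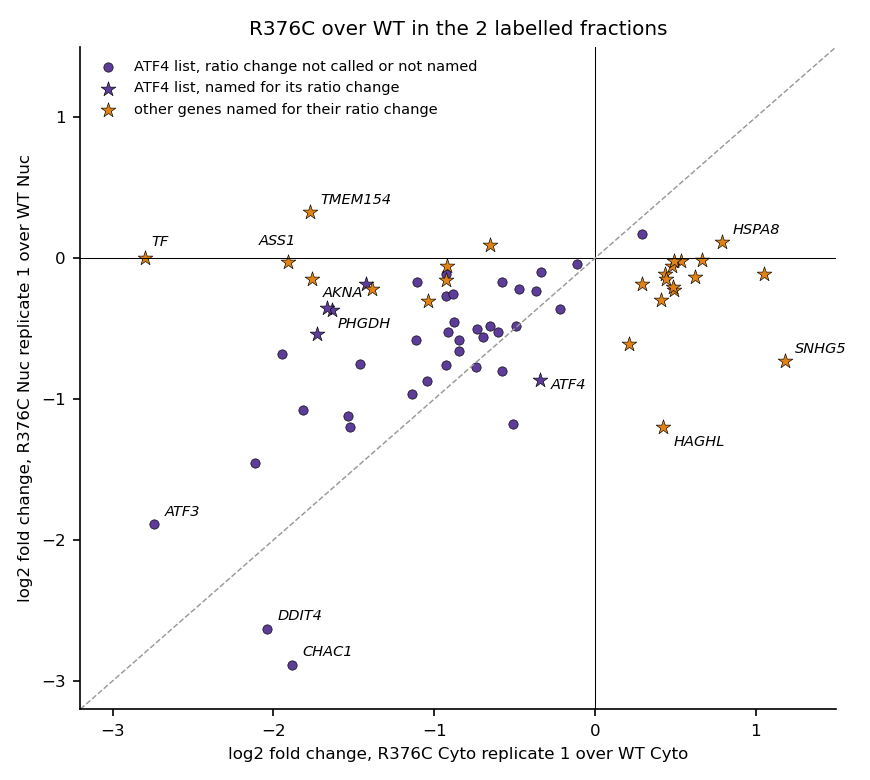
Log2 fold change of R376C Nuc replicate 1 over WT Nuc (vertical) against that of R376C Cyto replicate 1 over WT Cyto (horizontal), for the ATF4 list (purple circles) and genes named for their ratio change (stars); the dashed line marks equal change. TF (-2.80 and 0.00), ASS1 and PHGDH lie above the line, and ATF4 (-0.34 and -0.87), DDIT4, HSPA8 and SNHG5 lie below it.

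R376C was also set against the other 5 mutants of the series, G325E, R326H, R351W, R534S and T532M, each with 2 libraries per titled fraction. These comparisons use the same R376C libraries as those with WT, so their results are not independent of the ones above. In Cyto, R376C replicate 1 had 13 genes higher and 1 lower of 17530 (0.0742% and 0.0057%, 0.0799% in either direction; 1432 with an unadjusted p under 0.05). With the T532M libraries left out, an alternative chosen after seeing the data, 8 were called. In Nuc, 571 were higher and 523 lower of 14598 (3.91% and 3.58%, 7.49% in either direction), and 2999 had an unadjusted p under 0.05. With T532M left out there, 1 of the genes named in this Nuc comparison lost its call and 13 stood as before. Of the ATF4 list, 10 of 41 were higher and 0 lower in Cyto (median 0.48) and 30 higher and 1 lower in Nuc (median 0.68), the 1 being ALDH18A1 (-0.48 ± 0.15). All-gene medians were -0.00 in both.

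PHGDH in Cyto had 80.8 CPM in R376C replicate 1, against 27.9 to 47.1 CPM in the 10 libraries of the other mutants, 34.5 to 40.2 CPM without a transgene and 246 to 268 CPM in WT. R376C lay above the other mutants and far below WT (1.17 ± 0.14 over the mutants; edgeR, adjusted p = 2.52e-06). In Nuc PHGDH had 153 CPM in R376C replicate 1, against 26.4 to 44.2 CPM in the other mutants and 193 to 196 CPM in WT, and lay nearer to WT (2.05 ± 0.08 over the mutants). ALDH1L2 exceeded the other mutants by 1.34 ± 0.18 in Cyto and 2.01 ± 0.11 in Nuc, and SLC7A5 by 1.05 ± 0.10 and 0.91 ± 0.06. SLC7A5 had 237 CPM in R376C Cyto replicate 1, against 99.5 to 140 CPM in the other mutants and 444 to 449 CPM in WT. SLC1A4 (1.30 ± 0.19), SLC7A1 (0.88 ± 0.10), SLC6A9 (0.94 ± 0.17), PSAT1 (1.12 ± 0.22), PCK2 (0.72 ± 0.12), SLC7A11 (0.75 ± 0.16), SLC1A5 (0.56 ± 0.10) and GARS1 (0.48 ± 0.10) were the other genes of these pathways called higher in Cyto. Of these, PSAT1, SLC7A11, SLC1A5 and GARS1 were no longer called without T532M. Outside them, ZNF521, a zinc finger protein, was also called higher (1.14 ± 0.16). THBS1, thrombospondin, was the 1 lower gene (-0.91 ± 0.17). ZNF521 and THBS1 too were no longer called without T532M.

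DDIT4 in Nuc had 53.9 CPM in R376C replicate 1, against 24.3 to 40.9 CPM in the other mutants and 331 to 336 CPM in WT (0.69 ± 0.10 over the mutants), so it lay closer to the mutants. TF in Nuc had 18.5 CPM in R376C replicate 1, against 1.66 to 5.09 CPM in the other mutants and 17.5 to 19.7 CPM in WT (2.35 ± 0.22 over the mutants). ASS1 in Nuc had 28.4 CPM, against 2.83 to 8.38 CPM in the other mutants and 27.7 to 29.8 CPM in WT (2.21 ± 0.17). For both, R376C lay within the range of WT in Nuc; in Cyto TF had 4.27 CPM in R376C replicate 1, within the 1.75 to 6.87 CPM of the other mutants. HSPA8 went the other way, with 579 CPM in R376C Cyto replicate 1, against 693 to 876 CPM in the other mutants and 327 to 341 CPM in WT. Its difference from the other mutants in Cyto was not called. In Nuc HSPA8 had 1326 CPM, against 1721 to 1909 CPM in the other mutants (-0.45 ± 0.05).

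**Figure D5:**
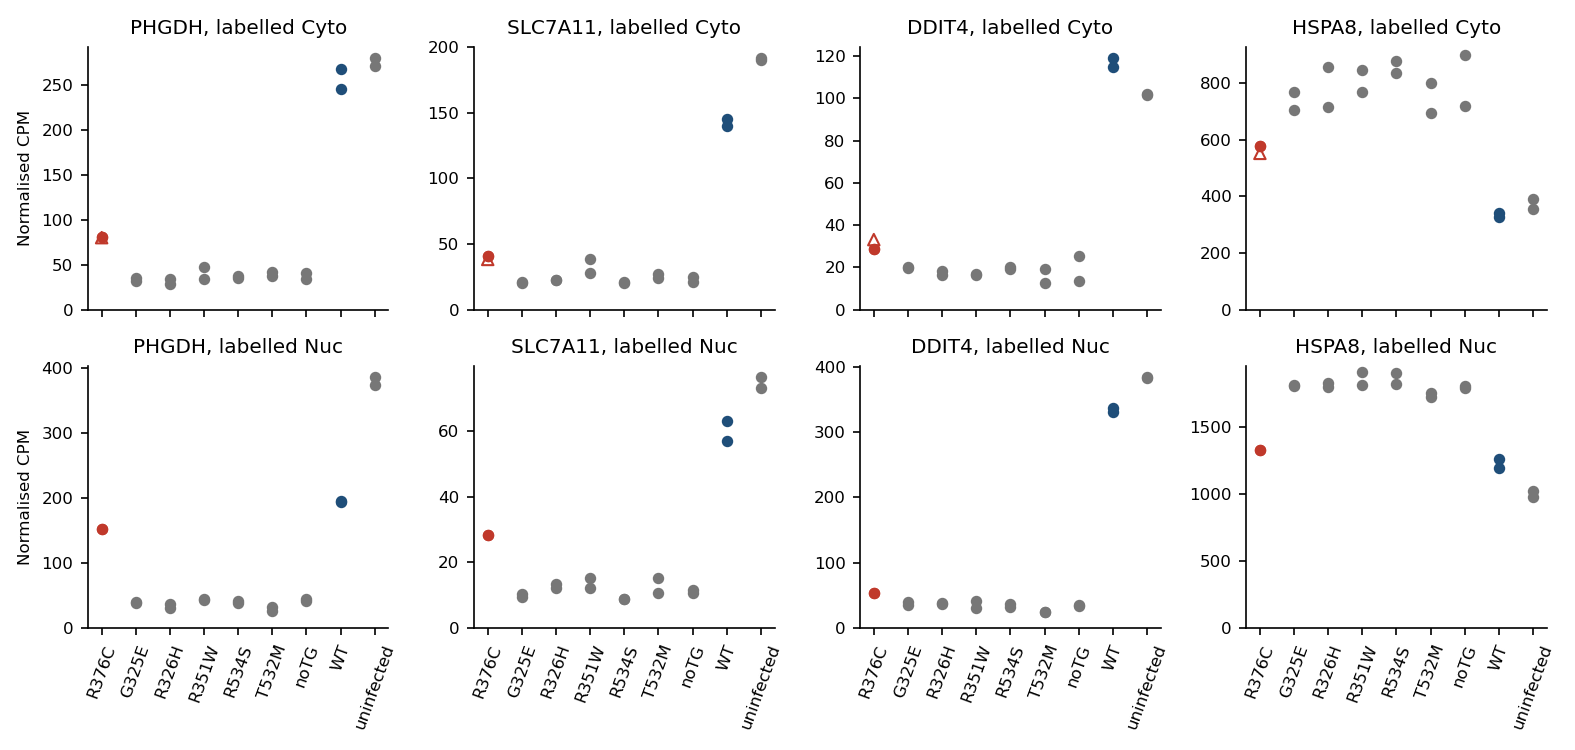
Normalised CPM of PHGDH, SLC7A11, DDIT4 and HSPA8 in each library of each genotype (linear scale from 0; noTG, knockdown without a transgene), with R376C in red (open triangle, Nuc replicate 2) and WT in blue; top row titled Cyto, bottom row Nuc. PHGDH in R376C lies between the other mutants and WT, at 80.8 CPM in Cyto and 153 CPM in Nuc, while DDIT4 lies near the other mutants.

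Broad groups also differed between R376C and the other mutants in Nuc, where 3.91% of all genes were higher and 3.58% lower. Cytosolic ribosomal protein genes were higher, 57 of 81 with 0 lower (median 0.22), as were 12 of 20 transfer RNA synthetases with 2 lower (median 0.31). Heat shock genes were lower, 7 of 16 with 0 higher (median -0.21). The 13 mitochondrially encoded messages were all lower (median -1.04), for example MT-CO1, a subunit of cytochrome oxidase, with 3855 CPM in R376C Nuc replicate 1, against 5864 to 16314 CPM in the other mutants and 3933 to 4123 CPM in WT. Against WT in Nuc, 0 of these 13 were called by edgeR (median -0.13, 1 lower by an unadjusted p under 0.05, with MT-CO1 at -0.06 ± 0.24). MT-RNR2 in Nuc had 11756 CPM in R376C replicate 1, against 8084 to 40101 CPM in the other mutants and 4262 to 6880 CPM in WT. Its variation and the share of multimapping reads (23.9% to 61.5% in the Nuc libraries of the fit, uninfected cells included) were not tested as a part of this result.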

How the data were processed

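The deposited files give, per the file headers and the values, unnormalised whole-number read counts per gene in the layout of STAR, unstranded and for each strand. The submitters' processing notes name STAR 2.7.5a and the build GRCh38, and the sources used here give no annotation. Of the 3 counts per gene, the one matching the kit's strand was used. Gene symbols came from a name table (60463 of 60664 identifiers matched) and gene positions from GENCODE release 29 on GRCh38. Unassigned reads, 42.2% to 71.7% of the reads of the 7 libraries, were left out.

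Robust quasi-likelihood fits were made in edgeR 4.0.16 (limma 3.58.1, R 4.3.3) with TMM normalization, the default filter on low counts and Benjamini-Hochberg adjusted p under 0.05 over all genes tested. The Cyto, Nuc and ratio fits held all genotypes of the transgene experiment with a coefficient each, with uninfected cells counted in, an assumption as the labels do not place them; R376C Nuc replicate 2 was fitted beside the Cyto libraries and left out of Nuc and ratio fits. Standard errors are the absolute log2 fold change over the square root of F. CPM values are normalised and not divided by length, so levels are not compared between genes. The steps were tested on simulated data. DESeq2 1.42.0 served as an alternative. Within a titled fraction, same-numbered WT and other libraries did not deviate together (r from -0.0415 to 0.0586), so replicate numbers were not treated as pairs. Whether same-numbered Cyto and Nuc libraries of a genotype deviate together was not tested, and the ratio fit treats them as unpaired.

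The genes named are DDX3X, up to 12 called protein-coding genes with the largest change in each direction that reach a mean of 5 CPM and lie beyond both WT libraries (5 against the other mutants), up to 4 called members per list, and members whose roles are described. The members and lists were chosen with earlier results of these data known. Analyses with protein-coding genes only and without T532M were chosen after seeing the data. Some genes that met these rules are not reported here.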

Additional observations from a re-analysis of the deposited data

Results flagged for a closer look

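For 30 named genes the change between R376C and WT differed between the titled fractions by the test of the Nuc over Cyto ratio itself (edgeR, adjusted p under 0.05). The ratio was higher in R376C than in WT for TF (2.72), TMEM154 (2.02), ASS1 (1.81), AKNA (1.53), PHGDH (1.24), GPT2 (1.19), ALDH1L2 (1.17), SLC6A9 (1.12), WARS1 (1.10), CALCOCO2, an autophagy receptor (0.79), ACSM3, a mitochondrial ligase (0.69), KMT5A, a histone methyltransferase (0.67) and GARS1 (0.65), all as log2 changes. It was lower for SNHG5 (-1.99), HAGHL (-1.70), ALDH1B1, a mitochondrial dehydrogenase (-1.24), WDR4, a transfer RNA methylation factor (-0.90), FHL3 (-0.83), the myosin chaperone UNC45A (-0.79), TBRG4 (-0.78), the ribosome biogenesis factor UTP4 (-0.77) and SNHG4 (-0.76). Lower ratios were also found for HSPA8 (-0.75), FASN (-0.67), CCT6A (-0.64), ATF4 (-0.60), EIF4A2, a helicase of translation initiation (-0.63), DYNC1H1 (-0.61), GAS5 (-0.59) and HSP90AB1, a chaperone (-0.55). R376C enters this test with 1 library per fraction. When 1 WT library was left out, TF, ASS1, AKNA, PHGDH, GPT2, ALDH1L2, WARS1, GARS1, SNHG5, HSPA8 and DYNC1H1 were called each time, and the other 19 were not called in at least 1 of these fits. With DESeq2's size factors, 18 of all genes had a higher ratio and 4 a lower one, against 15 and 19 as reported.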

How the results depend on the processing

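The median change of the ATF4 list kept its sign in each comparison under every alternative tried. In the fit of the R376C and WT libraries alone, which rests on the spread within few libraries, 911 genes were called in R376C Cyto replicate 1 against WT Cyto (145 as reported), with 36 of the ATF4 list. That fit called 1645 in R376C Nuc replicate 2 against WT Cyto, 958 for R376C Cyto replicate 1 and Nuc replicate 2 against WT Cyto, 793 in Nuc and 343 for the ratio. DESeq2's Wald test called 216 in Nuc, 663 against the other mutants in Nuc (1094 as reported) and 5 between both R376C libraries set beside WT Cyto (2 as reported). Without a filter on low counts these last became 7, and the calls against the other mutants in Cyto 49 (14 as reported), which became 8 without T532M. With DESeq2's size factors the ratio had 22 calls.

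Keeping R376C Nuc replicate 2 in its titled group changed the Nuc results most. The calls in Nuc became 8, with 4 of the ATF4 list, those of R376C Nuc replicate 1 against the other 5 mutants in Nuc 3823, with 19 of the list, and those for the ratio 0. Of the named genes in that analysis, 7 changed sign against WT in Nuc: NEAT1 at 3.42, VEGFA at 0.0011, SLC3A2 at 0.011, DNAJB1 at -0.30, HSPB1 at -0.44, RPL21 at -0.53 and EIF4G2 at -0.45. Against the other mutants, 4 did: DDX3X at -0.049, ATF4 at -0.23, RPL21 at -0.51 and ALDH18A1 at 0.61. For the ratio, SNHG5 stood at 0.043, SNHG4 at 0.055, HAGHL at 0.43 and WDR4 at 0.19. The DDX3X ratio, uncalled, was 0.046 with DESeq2's size factors and 0.047 by its Wald test, of the opposite sign to that reported. The cause was not tested.

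When 1 library was left out, the calls were 86 to 95 in R376C Cyto replicate 1 (ATF4 list 18 to 19), 142 to 143 in R376C Nuc replicate 2 (19 to 21), 145 to 305 in both together (23 to 28), 159 to 281 in Nuc (25 in each case) and 11 to 29 for the ratio. Of the named genes, 35 of 55, 39 of 56, 5 of 6, 47 of 70 and 11 of 30 kept their calls in all of these, in the same order.

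Replicate numbers were not shown to pair the libraries. With the replicate number as a block, the calls were 129 in Cyto (ATF4 list 23), 234 in R376C Nuc replicate 2 (25), 420 in both together (34), 320 in Nuc (27), 30 for the ratio and 2 between both R376C libraries beside WT Cyto. Against the other mutants they were 11 in Cyto (9) and 884 in Nuc (30). Single R376C libraries and low counts limit what could be called.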

Other observations

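Other gene groups of RNA metabolism and growth showed few called members in R376C Nuc replicate 1 against WT Nuc, where 1.12% of all genes rose and 1.63% fell. Of 32 DEAD-box helicases tested, 1 rose and 0 fell, and the 1 was DDX3X, the targeted gene. Of 15 CCR4-NOT deadenylase genes, 0 were called by edgeR, with 3 higher and 2 lower by an unadjusted p under 0.05. Of 31 nucleoporin genes 1 rose, and of 23 messenger RNA export factors 1 fell. Nuclear-encoded oxidative phosphorylation genes had 2 that rose and 1 that fell of 74, the proteasome had 1 and 2 of 36, and replication-dependent histones had 2 and 1 of 49. Of 397 tested zinc finger genes of the ZNF series, 5 rose and 1 fell. Of 6 messages reported as translation targets of DDX3, 0 were called by edgeR in either fraction, with 0 in Cyto and 1 in Nuc at an unadjusted p under 0.05 and medians of 0.02 in Cyto and 0.01 in Nuc.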
